A study of Rattus norvegicus with 8 samples.

Results

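The strongest isolated glucocorticoid receptor (GR) binding sites of the rat hippocampus numbered 886 of the 7298 regions in the merged list. The study mapped GR on chromatin by ChIP-seq, which sequences the DNA recovered with antibodies against GR, in whole hippocampus of male Sprague-Dawley rats aged 9 weeks. All rats were adrenalectomized, had lost their replacement hormone 12 hours earlier and received corticosterone at 0.75 mg/mL by jugular infusion for 30 minutes, so both groups lacked adrenal hormone of their own. The nonstressed controls (NSC) stayed in the home cage, and the stressed rats were restrained during the infusion. Each group had 2 GR ChIP libraries and 2 input libraries, and each library came from chromatin of 8 pooled rats and mixed all hippocampal cell types. The comparison asks whether restraint moved GR to other places or changed its amount at the same hormone level.

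A region was chosen by its maximum tag density, the height of the normalized pile of sequence tags at its highest point, which had to be 30 or more in the merged list. It also had to share at least 1 bp with a hotspot (a peak called in both replicates) of the NSC list and with one of the stressed list. No other merged region could lie within 10 kb on the same chromosome. Among merged regions, 1221 reached 30, of which 1193 held hotspots of both groups and 886 of these were isolated. A further 12 isolated regions at 30 or more held hotspots of 1 group only, 5 of NSC and 7 of stressed, and were left out by the rule. Tag density in the 2 groups thus chose the members, and the values below are descriptions of them. The authors deposited 1 tag density per hotspot and group with the replicates combined, so no value has a replicate error and no test between groups was made. These lists do not give sequencing depth, which is therefore unknown.

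GR is a nuclear receptor that stays mainly in the cytoplasm until corticosterone binds it and then enters the nucleus. There it attaches to DNA as a dimer, most directly at the glucocorticoid response element, a palindrome of paired half-sites. In many cell types, much of GR binding falls in chromatin that other transcription factors already hold open. In the hippocampus GR is known for its part in memory, in neuronal excitability and in the negative feedback that ends a stress response. Coordinates are those of the rn5 build as deposited, and the genes beside the regions were not analysed here.

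One member carries a number that also appears in the primer list of the study. The region chr3:170749565-170750070 is number 1912 in the merged list, and the ChIP assay of nuclear factor 1 (NF-1), another DNA-binding factor, used a primer pair for an intergenic site with the number 1912. The primers are shown because of this shared number, and no letters are marked in them. They are written 5′ to 3′. Whether both numbers mean the same place was not tested, since rn5 sequence was not used here.
Forward primer of site 1912: gcagcagcagtgtccat
Reverse primer of site 1912: gtccctatgccagcacattat
Region number 1912 had an NSC tag density of 54.7 and a stressed one of 68.1. The region was only 506 bp long, and its next merged neighbour lay 17805 bp away. Region number 3500, whose number is also that of a primer pair, was as strong (63.0 in NSC and 68.1 in stressed) but had a neighbour at 2216 bp and was not isolated.

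The highest tag densities of the set were nearly as high in one group as in the other. At chr5:165023127-165024400 the NSC value was 64.4 and the stressed value 72.9. At chr20:8595866-8596933 they were 60.2 and 72.7, the widest gap between groups among the 10 strongest members. These regions are long, at 1274 and 1068 bp, and each held a single hotspot per group.

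The next members in order had almost the same height. Tag density was 64.6 in NSC and 71.8 in stressed at chr1:125886247-125887492, and 65.7 and 70.5 at chr11:67467887-67468916. At chr14:84408909-84409842 it was 62.3 and 70.2. At chr3:2232727-2233695 it was 66.7 and 70.0, which made this the member with the highest NSC value. The stressed value was the higher one in each of these regions, as it had to be for any member ranked above the highest NSC value of 66.7.

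The last regions of the first 10 repeated this order of the groups. On chromosome 7, tag density was 62.5 in NSC and 70.0 in stressed at chr7:129532393-129533519, and 65.3 and 69.3 at chr7:125274254-125275250. At chr19:64368068-64369002 it was 64.4 and 69.8, and at chr4:62133199-62134386 it was 62.1 and 68.7. Across all 10, the stressed value was 1.05 to 1.21 times the NSC value, and the lengths ran from 934 to 1274 bp. The 10 NSC values lay between 60.2 and 66.7, below the lowest stressed value of 68.7. The ranking used the higher of both groups' values, which by itself favours neither group. No member had an NSC value above 66.7, so each of the 10 owed its rank to its stressed value. The ranking within a group differed more, since only 4 of the 10 highest members by NSC tag density were among the 10 highest by stressed tag density. Of the first 100 by each group, 82 were shared.

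Over the 886 members, NSC tag density ran from 12.5 to 66.7 with a median of 34.5, and stressed tag density ran from 10.5 to 72.9 with a median of 37.4. Both groups reached 30 in 581 members (65.6%). In 95 members (10.7%) only the NSC value did, and in 210 (23.7%) only the stressed value did. For the 307 strong sites of both groups with a neighbour within 10 kb, these shares were 67.8%, 10.1% and 22.1% in this order. For all 4302 merged regions with hotspots of both groups they were 18.3%, 2.93% and 6.46%. Written as log2(stressed/NSC), the members' median was 0.13, which is a ratio of 1.10, with a spread between regions of 0.28 (SD). The stressed value was higher in 649 members (73.3%), against 64.8% of all 4302 merged regions with hotspots of both groups. Among the 307 strong sites with a neighbour within 10 kb the share was 76.5%. When each group was divided by its median over the 4302 regions, which shifts every log2 ratio by 0.056, the count was 575 (64.9%). The shares were then 57.9% of the 4302 and 66.8% of the 307. Because the rule used the higher of both groups' values, these shares are not read as a trait of the members. The groups' log2 values had a Pearson's r of 0.74 across the members, which is a description across regions that share the same libraries.

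Large differences between groups were rare. In 3 members the stressed value was 2-fold the NSC value or more, where 1.53% of all regions with both groups passed this fold. In another 3 the stressed value was lower by 2-fold or more, where 0.418% of all regions did. Because the rule itself used these values, nothing about the set is read from these shares. In 653 members (73.7%) the groups lay within 1.25-fold of each other, and in 47 (5.30%) they were at least 1.5-fold apart. Over all 4302 regions with both groups these shares were 63.5% and 11.4%, and over the 307 strong sites with a neighbour they were 71.7% and 7.49%.

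**Figure D1:**
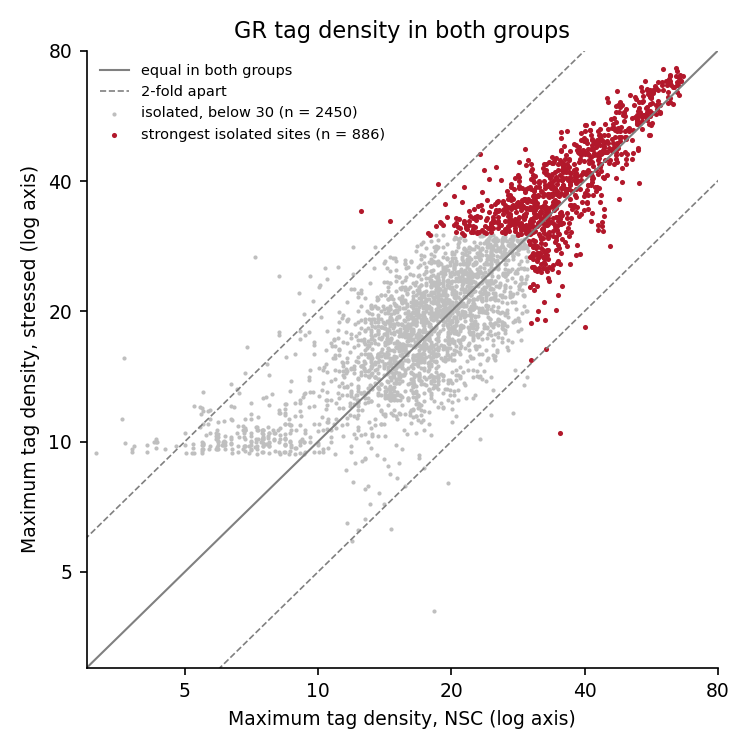
Maximum tag density in the NSC group (x axis) and the stressed group (y axis), both on log axes, with 1 point per region. Red points are the 886 strongest isolated sites and grey points the 2450 isolated sites of both groups below 30; the solid line marks equal values and the dashed lines a 2-fold difference, which 6 red points pass. The square lower left edge of the red cloud is the threshold of 30.

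The 3 members that passed the fold upwards were all of modest strength. At chr2:11728932-11729395 the NSC value was 12.5 and the stressed value 34.1, a ratio of 2.72. These were 14.5 and 32.3 at chr1:273912249-273912895, and 18.7 and 39.4 at chr13:95182769-95183413. The first of these had the lowest NSC z-score of all members, 10.2. The z-score is the peak caller's measure of how far a hotspot stands above its local background. The next ratio was 1.99, at chr5:160730070-160730759 with 23.2 and 46.2. It was followed by 1.83 at chr20:6408870-6409504, with 19.3 and 35.4.

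In the other direction, the ratio furthest from equality was at chr2:99464482-99465759, where NSC tag density was 35.1 and stressed tag density 10.5. There the NSC hotspot spanned all 1278 bp, whereas the stressed hotspot covered 99464712 to 99464982, so that only 21.2% of the joint span was shared. The z-score was 43.6 in NSC and 10.2 in stressed. At chr6:133924831-133925691 tag density was 40.1 and 18.4, and a weak hotspot of the stressed list lay 4563 bp away. It was 32.8 and 16.4 at chr19:68905739-68906409. Under 2-fold came chr5:65232894-65233508, with 30.3 and 15.5 (a log2 ratio of -0.97), and chr2:202666515-202667404, with 32.6 and 19.1 (-0.77). With the combined values used here, none of these differences can be set against replicate error. The study itself compared tag counts of the separate replicates at its GR peaks with DESeq, a count-based test. It reported no peak that differed significantly between the groups.

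The spread of the ratio was smaller in the classes of higher tag density. These classes were cut on the higher of the 2 values that form the ratio, and the cause of the narrowing was not tested. Among the 302 members with a tag density of 30 to 35, the log2 ratio had an SD of 0.34 and reached 1.45 at its highest. From 35 to 40 the SD was 0.32 (182 members), and from 40 to 50 it was 0.26 (225 members). It was 0.16 in the 103 members from 50 to 60 and 0.11 in the 74 members at 60 or more, where the ratio ran from -0.075 to 0.47. The share of members at least 1.5-fold apart went from 8.94% in the first of these classes to 0 of 103 and 0 of 74 in the last ones. The median stayed between 0.088 and 0.18 in all 5 classes.

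The direction of the small difference also became more uniform. The stressed value was higher in 189 of the 302 members at 30 to 35 (62.6%) and in 68 of the 74 members at 60 or more (91.9%). In between, at 50 to 60, the share was 84.5%. After division by the group medians the shares were 55.0%, 82.4% and, at 50 to 60, 68.9%. At 50 or more, the stressed value was higher in 155 of 177 members and lower in 22. Classes were formed on the higher of both groups' values, and only stressed values exceeded 66.7. Above 66.7 the stressed value was thus necessarily the higher one, whereas at lower tag densities either group's could be. How far this shaped the shares was not tested. Division by the group medians does not undo it, because the classes stayed the same. These figures therefore describe the set, were not tested and are not read as an effect of binding strength.

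**Figure D2:**
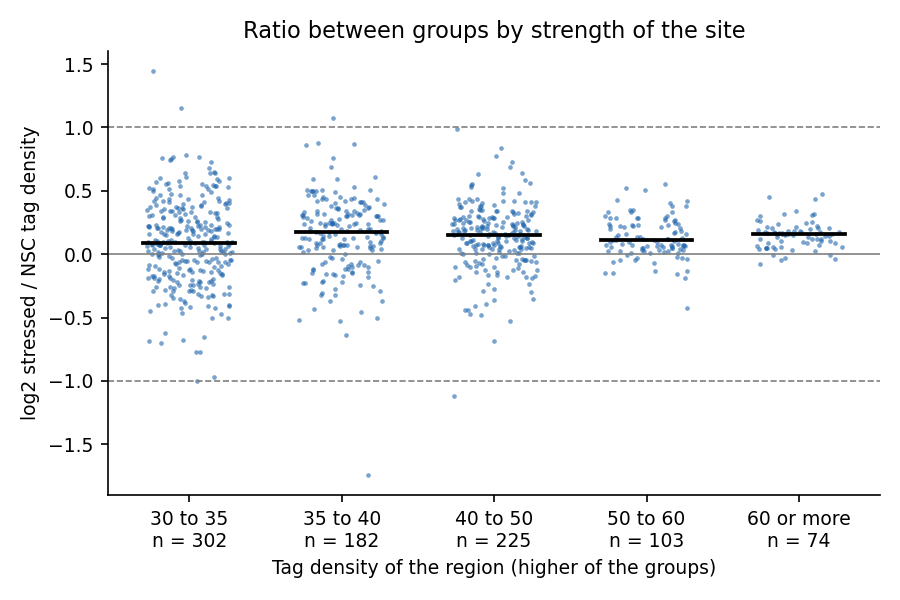
The log2(stressed/NSC) of tag density (y axis) for each strongest isolated site, in 5 classes of tag density (x axis, the higher of the groups). Black bars are medians, the grey line marks equal values and dashed lines a 2-fold difference; the SD goes from 0.34 in the leftmost class to 0.11 in the rightmost.

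The position and width of binding were nearly the same in both groups. In 881 members (99.4%) each group had exactly 1 hotspot, and in 5 the NSC group had 2. The centres of the NSC and stressed hotspots were a median of 19 bp apart and lay within 50 bp of each other in 799 members (90.2%). Of the joint span of both hotspots, a median of 92.4% was shared. For the 2450 isolated sites of both groups below 30, the median centre distance was 30 bp, 70.8% were within 50 bp, and a median of 82.1% of the span was shared. The 307 strong sites with a neighbour were nearer to the members, with a median centre distance of 22 bp, 82.1% within 50 bp and a median of 91.1% of the span shared. Length and overlap come from the same calls as the rule, so this comparison carries no test.

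In all 5 members with 2 NSC hotspots, the stressed list held a single one. At chr9:113010851-113012145 the NSC list held one hotspot with a tag density of 56.6 and a second with 21.4, while the stressed list held one of 1281 bp with 62.2. At chr20:31264070-31265385 the NSC hotspot with the higher value had 39.9, and the stressed hotspot had 41.7 over 1309 bp. At chr11:76153336-76153894 the first NSC hotspot was 8 bp long and both carried the same tag density of 43.6. Both NSC hotspots also had equal values at chr6:69738532-69739220 (tag density 46.6, z-score 41.7) and chr3:2465839-2466995 (36.9 and 28.2). The number of hotspots is therefore not read as a difference between the groups.

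Hotspot length followed tag density. The merged members had a median length of 748 bp, from 391 to 1515 bp, and the median was 702 bp at a tag density of 30 to 35 and 963 bp at 60 or more. The isolated sites below 30 had a median of 578 bp, and the strong sites with a neighbour within 10 kb had 765 bp. The shortest members were chr2:134264626-134265016 at 391 bp, chr1:76086102-76086503 at 402 bp and chr3:115350902-115351303, also at 402 bp. Their tag densities in NSC and stressed were 31.2 and 38.7, 37.1 and 36.4, and 55.9 and 51.0. The longest were chr15:8240655-8242169 at 1515 bp, chr15:11885371-11886771 at 1401 bp and chr7:108966582-108967979 at 1398 bp. In these, tag density was 56.8 and 60.4, 56.8 and 54.3, and 48.4 and 53.3.

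The members' median z-score was 30.2 for NSC and 33.1 for stressed, against 14.9 and 15.9 in the isolated sites below 30. The stressed z-score was the higher one in 665 members (75.1%), against 65.0% of all regions with both groups and 74.6% of the strong sites with a neighbour. Spearman's rho between groups was 0.86 for the z-score and 0.73 for tag density, as descriptions over the 886 regions. The p-value of the peak caller was listed as 0 for 266 members (30.0%) under NSC and for 338 (38.1%) under restraint. Over all regions with both groups these shares were 15.2% and 19.4%. Over the strong sites with a neighbour they were higher than in the members, at 36.8% and 47.9%.

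**Figure D3:**
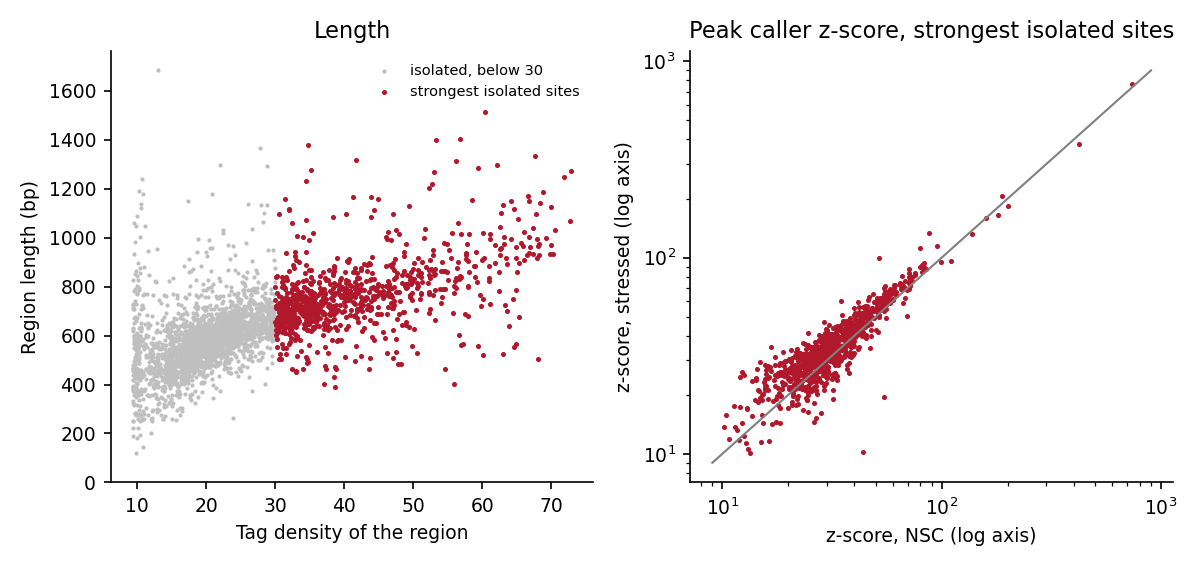
Left, length of the merged region in bp against its tag density, with the strongest isolated sites in red and isolated sites of both groups below 30 in grey. Right, z-score of the peak caller in the NSC and stressed groups for the strongest isolated sites, on log axes with a line at equal values; most points lie near the line, and the highest has 734 in NSC and 770 in stressed.

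The rule measured isolation against the merged list, which holds strong hotspots only, so the full lists of 19506 NSC and 23970 stressed hotspots give a separate view. Only 32 members (3.61%, 95% Wilson interval 2.57% to 5.05%) had another hotspot of either list within 10 kb. Among the isolated sites below 30 this was so for 323 (13.2%, 95% Wilson interval 11.9% to 14.6%). For 10 members the nearby hotspots were in both lists. These intervals cover counting error over regions only. The weak neighbours of the members had a median tag density of 6.84 in each list, and the highest reached 11.3. A hotspot strong enough for the merged list would have excluded the member, so these low values follow from the rule.

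The nearest companion lay beside chr17:92136391-92137199, where a stressed hotspot with a tag density of 6.94 began 632 bp away and an NSC hotspot with 6.83 lay at 727 bp. Their z-scores, 84.1 and 56.1, were far above the members' medians. At chr9:49003622-49004486 hotspots of both lists lay at about the same distance, with 8.87 at 1666 bp in NSC and 7.38 at 1611 bp in stressed.

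The median distance from a member to the next merged region was 72926 bp, and 522 members (58.9%) had one within 100 kb. For the isolated sites of both groups below 30, the median was 104135.5 bp and the share 48.9%. Over all regions with both groups, which need not be isolated, the share was 62.5%. The members farthest from any merged region were chr6:156081478-156082354, chr9:37752867-37753592 and chr15:46375854-46376564, at 1647974, 1531033 and 1410459 bp. Their tag densities in NSC and stressed were 35.5 and 38.5, 30.3 and 34.6, and 25.6 and 33.0. The most remote of them nevertheless had a weaker hotspot at 10723 bp. Between members themselves the median distance was 477873 bp, and 159 had another member within 100 kb. Tag density showed little relation to the distance to the next merged region, with a Spearman's rho of -0.051 across the members.

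**Figure D4:**
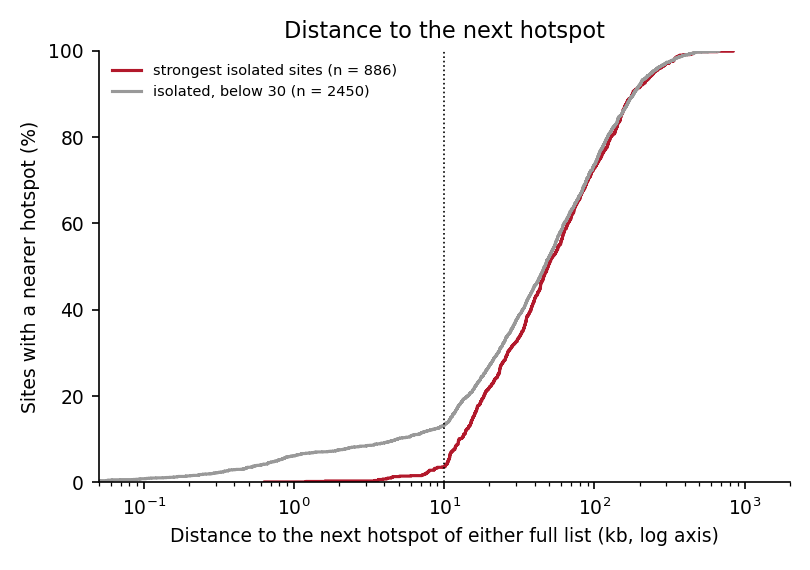
Cumulative share of sites (y axis, percent) with another hotspot of either full list nearer than the distance on the x axis (kb, log axis). The dotted line marks 10 kb, below which lie 3.61% of the strongest isolated sites (red) and 13.2% of the isolated sites below 30 (grey).

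Members were found on all 20 autosomes and on chromosome X. Of the 3336 isolated sites of both groups, 886 (26.6%, 95% Wilson interval 25.1% to 28.1%) reached 30. By chromosome, this share ran from 20.2% on chromosome 4 to 34.8% on chromosome 12 (95% Wilson interval 27.3% to 43.3%) among the autosomes. For 18 of the 20 autosomes the interval held the overall share. On chromosome X it was 4 of 62, or 6.45% (95% Wilson interval 2.54% to 15.4%), and the median tag density of the isolated sites there was 13.9, against 22.5 on the autosomes. All rats were male, and whether this bears on the level was not tested.

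The 4 members on chromosome X were of ordinary strength for the set. Tag density in NSC and stressed was 34.2 and 40.5 at chrX:12909573-12910393, and 33.8 and 35.1 at chrX:30020574-30021389. It was 25.5 and 35.9 at chrX:123578349-123578987 and 32.2 and 25.2 at chrX:11735058-11735761. The last one was higher in the NSC group, unlike the others.

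Chromosome 12 was the densest, with 8.51 members per 10 Mb up to the last position in the lists. Chromosome 10 had 5.20, chromosome 4 had 1.45, and chromosome X had 0.259. Isolated sites of both groups, members included, followed the same order. They numbered 24.4 per 10 Mb on chromosome 12, 19.2 on chromosome 10, 7.17 on chromosome 4 and 4.01 on chromosome X. Members made up 34.8%, 27.1%, 20.2% and 6.45% of them in this order, against 26.6% over all chromosomes. The density of members thus in part repeats that of all isolated sites. Chromosomes 10 and 12 together held 104 members, with a median log2 ratio of 0.18. The strongest member of chromosome 12 was chr12:42765274-42766442, with 64.6 in NSC and 66.6 in stressed. On each of the 21 chromosomes the median log2 ratio of the members was above 0, from 0.055 to 0.23, and on 20 of them it remained so after division by the group medians. Over all 4302 regions with both groups the median log2 ratio was 0.11. The chromosomes share the same libraries and combined values, so they are not replicates of the comparison.

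**Figure D5:**
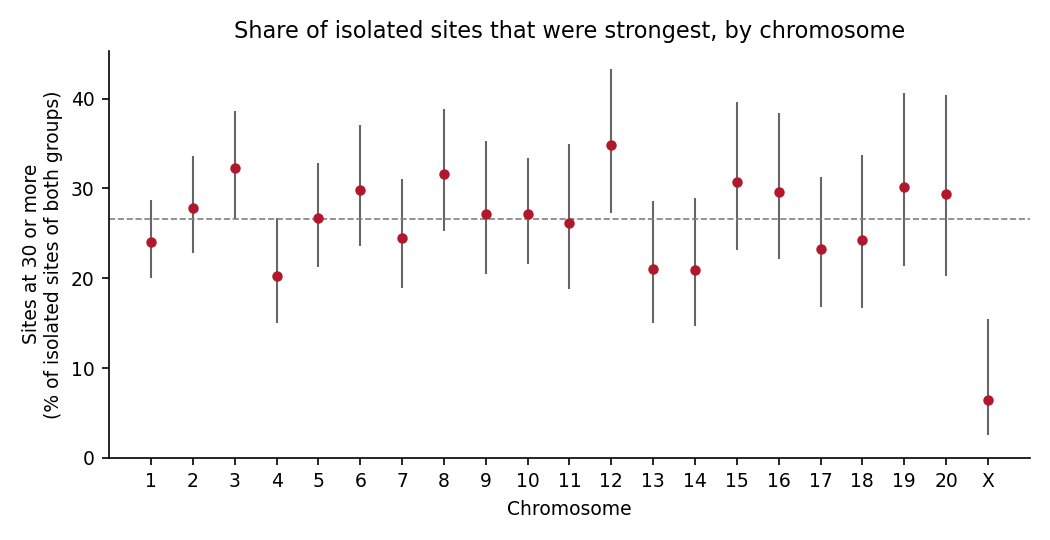
Share of the isolated sites of both groups that reached a tag density of 30 (y axis, percent) on each chromosome (x axis). Bars are 95% Wilson intervals over regions and the dashed line is the overall 26.6%; chromosome X is lowest at 6.45% and chromosome 12 highest at 34.8%.

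The limit of 30 cuts through a continuous range of values. Just inside it lay chr7:123845380-123846036 with 30.0 in NSC and 29.0 in stressed, and chr1:258020439-258021182 with 28.3 and 30.0. On the same chromosome was chr1:258062628-258063426, with 17.9 and 30.0. Just outside lay chr1:22459092-22459758 with 24.9 and 30.0, chr4:180486008-180486621 with 19.1 and 30.0, and chr2:63619827-63620701 with 24.6 and 30.0, all of which were a little under 30 before rounding.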

How the data were processed

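GR ChIP-seq and input libraries of 2 groups were made from whole rat hippocampus. Per the study's methods, the authors used Bowtie2 with the rn5 build, kept 1 copy of duplicated tags, lengthened each tag in the 3′ direction, set its density against the input library, left out simple repeats and kept the hotspots that both replicates had. The maximum tag density is deposited as a signal (coverage), 1 value per hotspot and group, on a scale not given in the sources used here. The z-score is a score deposited by the authors, as is the p-value. The merged list was deposited with the higher of the groups' values.

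Hotspots were joined to merged regions by an overlap of at least 1 bp, and the highest tag density of each group was its value. Gaps are edge to edge. Named regions are the 10 strongest, the 5 with the highest and the 5 with the lowest ratio, the 3 longest, shortest and most remote, and 3 on each side of the limit. Regions on chromosome X, the numbered sites, split hotspots, places with near neighbours and the strongest of chromosome 12 were named after their values were seen. Members, lists and comparisons were chosen with earlier results of these data known. Fits per library, genes, motifs and sequence were not analysed here, because rn5 sequence and annotation were not used. The joining and the rule were tested on simulated data. Python 3.11.15 with numpy 2.4.6, pandas 2.3.3, scipy 1.17.1 and matplotlib 3.10.9 was used.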

Additional observations from a re-analysis of the deposited data

How the results depend on the processing

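No paired analysis was possible because the lists hold 1 combined value per group, and for the same reason no replicate could be left out. Motif and gene alternatives were not run, as they need rn5 sequence or annotation. With a limit of 25 in place of 30, 8 members were at least 2-fold higher and 6 at least 2-fold lower in the stressed group, and the median length was 710 bp. With 40, the numbers were 402 members, 0 higher, 1 lower and 806 bp. Requiring 30 in both groups, an alternative chosen after seeing the data, left 581 members, 0 higher and 0 lower, with a median log2 ratio of 0.10, an r of 0.86 and a median length of 778 bp. The number of members changes by construction in each of these. The median distance to the next region was 62630.5 bp with a gap over 5 kb, 95156 bp with a gap over 20 kb and 49124 bp against both full lists. Division by the group medians gave a median log2 ratio of 0.078, and linear tag density an r of 0.83. For the other shifts the cause was not tested. The other alternatives, an overlap of 50%, ranking by z-score, Spearman's rho and leaving out chromosome X (the last chosen after seeing the data), left every result they were run on close to its value. The median log2 ratio was above 0 in all alternatives. The unknown depth limits each ratio, since its counting error cannot be given.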

Other observations

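These regions were singled out after their values were seen. A few strong members were short. Of the 177 members with a tag density of 50 or more, 11 were 600 bp or shorter, while the other 166 had a median length of 900.5 bp. The short ones had a median z-score of 23.1 in NSC and 27.7 in stressed, against 53.0 and 58.7 in the longer ones. The region chr3:170749565-170750070, number 1912, is the strongest of the 11. At chr12:26733025-26733577, which is 553 bp long, tag density was 47.3 in NSC and 64.6 in stressed, with z-scores of 16.5 and 27.7. At chr7:70808297-70808758, of 462 bp, it was 53.4 and 54.6, with the lowest z-scores of the 11 at 12.8 and 11.3. One of them stood apart, chr3:115350902-115351303, whose z-scores were 66.4 and 58.6.

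Conversely, 11 members had a z-score over 100 in at least one group, and 7 had it in both. The highest was at chr4:217506845-217508158, with 734 in NSC and 770 in stressed at tag densities of 56.1 and 51.1. It was followed by chr13:31215934-31217062, with 421 and 379 at 49.3 and 46.6. At chr3:156118897-156119564 the z-scores were 200 and 184, although tag density was only 26.9 and 32.3.

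Isolated regions at 30 or more with a hotspot in 1 group only were led by chr15:93420002-93420465, with 48.1 in the stressed list, and chr17:51676552-51677033, with 47.7 in the NSC list. The other group has no value at these places here.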
